A study of Mus musculus with 51 samples.

Results

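The jejunum, the middle length of the small intestine, was compared between mice with a Roux-en-Y gastric bypass (RYGB) and mice with a sham operation. The members are the 9 jejunal villus libraries of the series, 4 RYGB and 5 sham, out of 51 libraries in all, chosen by their tissue and surgery labels, with every gene listed for that tissue. Both groups were male C57Bl6 mice with diet-induced obesity, sampled 9 weeks after surgery. Each group received a liquid elemental diet after the operation and then went back by steps to high-fat food. Sham mice were held at the body weight of the RYGB mice by rationing. All mice fasted overnight and were collected at the same morning hour, and villi were scraped off after a short bath in ice-cold EDTA. Bypass and rationing differ together between the groups and cannot be told apart. The surgical limb of the jejunal piece is not stated in the labels.

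In RYGB the stomach is reduced to a small pouch that is joined to the jejunum, so that food enters the jejunum without passing the main stomach and duodenum, while bile and pancreatic juice arrive further down. Jejunal enterocytes digest and absorb most sugars, amino acids and fats, package fat into chylomicrons, and carry a first-pass set of drug-metabolising enzymes. Their sterol synthesis is under the control of SREBP-2, the product of Srebf2, which is active when membrane cholesterol is low and acts through sterol regulatory elements near its target genes, usually together with the CCAAT-binding factor NF-Y.

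The deposited values are CPM, read counts scaled to a common library total, for 11021 genes. Read totals are unknown, and each library's listed genes add up to 980414 to 991840 CPM. All 12 absorptive enterocyte markers looked for were listed, with a summed level of 53436 to 69522 CPM in RYGB and 36352 to 69164 CPM in sham libraries. None of 10 stomach and Brunner gland markers and none of 7 fat cell markers was listed, and 12 of 17 pancreatic enzymes together reached 15.6 to 36.9 CPM in RYGB and 15.9 to 38.4 CPM in sham libraries. Summed levels of T and NK cell, fibroblast and MHC class II genes overlapped between the groups: 16 of 18 T and NK cell genes summed to 48.5 to 555 CPM in RYGB and 178 to 583 CPM in sham libraries, and 8 of 10 fibroblast genes to 10.3 to 146 CPM in RYGB and 6 to 71.5 CPM in sham libraries, with Col1a1 at 0 in some library. Sums of the Paneth, stem and enteroendocrine lists did not overlap and are given with those genes. The enteroendocrine list also holds the enterocyte marker Vil1. For the 7 MHC class II genes the sums were 110 to 1423 CPM in RYGB and 48.1 to 555 CPM in sham libraries.

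The fourth RYGB library stood apart from the other RYGB libraries. Across genes on the log2(CPM + 1) scale it had a median correlation of 0.918 with the other RYGB libraries and 0.958 with the sham libraries, while RYGB 1, 2 and 3 correlated better with their own group. On the first principal component, with 46.7% of the variance, RYGB 4 scored 4.47 and the other RYGB libraries -54.5, -23.5 and -71.4, against 7.47 to 46.2 in sham. To place it gene by gene, 2258 genes called without RYGB 4 were taken, and its level was expressed as a share of the way from the sham mean to the mean of RYGB 1, 2 and 3. Its median position was 35.1% of that way, and it lay inside the sham range for 806 of those genes (35.7%). The same measure gave 93% for RYGB 1, 61.9% for RYGB 2 and 117% for RYGB 3, each over the genes called without it. Inside the sham range lay 9.21% of those genes for RYGB 1, 25.9% for RYGB 2 and 3.54% for RYGB 3. The label of RYGB 4 was kept. Counts over gene lists are given with and without it where they moved by over 1.5 times, and a gene's log2 fold change without a library is added where leaving that library out moved the fold by over 1.5 times.

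**Figure D1:**
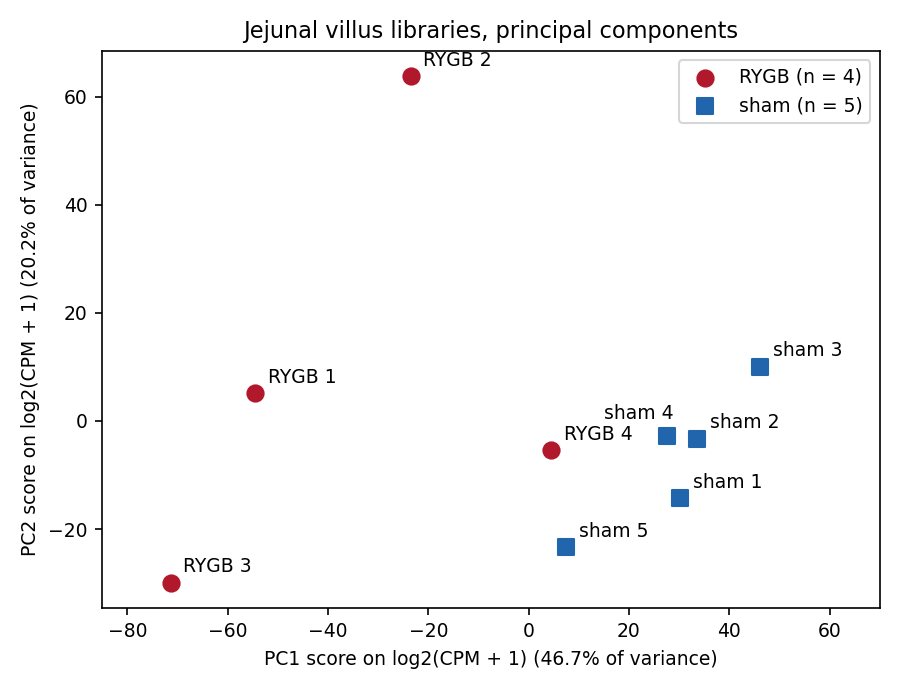
Scores of the 9 jejunal libraries on the first 2 principal components of log2(CPM + 1) over 11021 genes, with the share of variance on each axis; circles are RYGB and squares sham libraries. RYGB 4, at 4.47 on the first axis, lies beside the sham libraries at 7.47 to 46.2, and RYGB 2 stands apart on the second axis at 63.8.

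Of the 11021 genes, 697 were higher after RYGB (6.32%) and 693 lower (6.29%) at an adjusted p below 0.05, from limma on log2(CPM + 1) with Benjamini-Hochberg adjustment over all of them. Over all genes the median of the log2 fold changes (RYGB minus sham) was 0.08, and 6257 of the 11021 were above 0. List counts above 0 stand beside that share. The groups did not overlap for 1574 genes (14.3%), and 1093 genes were both called and without overlap. Without RYGB 4, 1078 genes were higher (9.78%) and 1180 lower (10.7%). Counts over gene lists below stand beside these shares of all genes. Leaving out other libraries changed the count of 1390 calls as well. It was 717 with RYGB 1 left out, 1720 with RYGB 2 and 565 with RYGB 3. With sham 1, 2, 3, 4 or 5 left out it was 543, 484, 752, 585 and 1095. In all, 426 genes (198 higher and 228 lower) stayed called whichever library was left out. Of the listed genes 834 had 1 CPM or more in at least 4 sham but fewer than 4 RYGB libraries, and 137 in all RYGB but fewer than 4 sham libraries; such genes are listed through 1 group alone, which favours a difference, and 101 of the lower and 35 of the higher calls are among them. Cyp4a10, Slc6a20b, Cyp2c38, Ces1g, Otop3, Aqp8, Slc7a5 and Mmp7 are such genes, as is Lgr5, which was not called. They are given as values with no p. Such genes still count as calls in the shares over all genes and in the lists that hold them. Cyp4a10, Cyp2c38 and Ces1g are among falls of PPARA, cytochrome P450, and carboxylesterase and aldo-keto reductase genes. Slc7a5 and Mmp7 are among rises of amino acid carriers and Paneth markers. With a minimum mean of 5 CPM those counts were, in that order, 7, 11, 9, 1 and 4, against 7, 14, 10, 2 and 4. That minimum keeps Cyp4a10, Cyp2c38, Ces1g and Mmp7, and counts without all such genes were not made. The counts of these lists are in part favoured by the listing. Genes described below are from the 426 unless a lost call is stated, and values run in library order, RYGB 1 to 4 and sham 1 to 5. Errors of fold changes are standard errors, all on the log2(CPM + 1) scale, and "rose" and "fell" are used only of called genes. In scraped villi, a change in the number of cells of a type and a change in RNA per cell cannot be told apart.

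Enzymes of cholesterol synthesis were higher after RYGB. Of 8 measured mevalonate pathway enzymes 7 rose and none fell, with a median log2 fold change of 2.17, and of 13 enzymes from squalene synthase to cholesterol 7 rose and none fell, with a median of 1.16. Without RYGB 4 the counts were 7 and 9 and the medians 2.62 and 1.47. Hmgcs1, the cytosolic HMG-CoA synthase at the entry of the pathway, had 775, 724, 514 and 167 CPM in RYGB, against 141, 102, 94.7, 88.8 and 95 CPM in sham (log2 fold change 2.18 ± 0.40, adjusted p = 0.0117). Mvd, which makes isopentenyl diphosphate, had 19.8, 29.8, 25.1 and 10.1 CPM in RYGB, against 2.2, 1.1, 3.4, 2 and 3.5 CPM in sham (log2 fold change 2.65 ± 0.33, adjusted p = 0.00301). Cyp51, the lanosterol demethylase, had 554, 211, 257 and 37.7 CPM in RYGB, against 19.9, 11.5, 10.7, 11.4 and 14.2 CPM in sham (log2 fold change 3.71 ± 0.61, or 4.46 without RYGB 4, adjusted p = 0.00768). RYGB 1, 2 and 3 were far above every sham library for each of these 3 enzymes, and RYGB 4 was the lowest RYGB library yet still above the highest sham library.

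For the next 3 enzymes RYGB 4 was again the lowest RYGB library. Mvk, mevalonate kinase, had 20.2, 10.9, 17 and 4.1 CPM in RYGB, against 2, 2.5, 1.6, 1.1 and 1.8 CPM in sham (log2 fold change 2.16 ± 0.38, adjusted p = 0.00839). Fdps, which makes farnesyl diphosphate, had 64, 31.1, 35.1 and 9 CPM in RYGB, against 3.5, 2.9, 3.7, 3 and 4.3 CPM in sham (log2 fold change 2.73 ± 0.43, adjusted p = 0.00666). Sqle, squalene epoxidase and a slow step of the pathway, had 231, 142, 133 and 17.1 CPM in RYGB, against 13.7, 7, 6, 6 and 9.2 CPM in sham (log2 fold change 3.40 ± 0.63, or 4.19 without RYGB 4, adjusted p = 0.0118). It was above the sham range for these 3, with a smaller margin for Sqle than for Fdps. Pmvk (phosphomevalonate kinase, 2.31 ± 0.39), Fdft1 (squalene synthase, 2.91 ± 0.43), Lss (lanosterol synthase, 2.03 ± 0.32), Nsdhl (a sterol dehydrogenase, 1.31 ± 0.28) and Acat2 (acetoacetyl-CoA thiolase, 1.17 ± 0.25) rose as well.

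**Figure D2:**
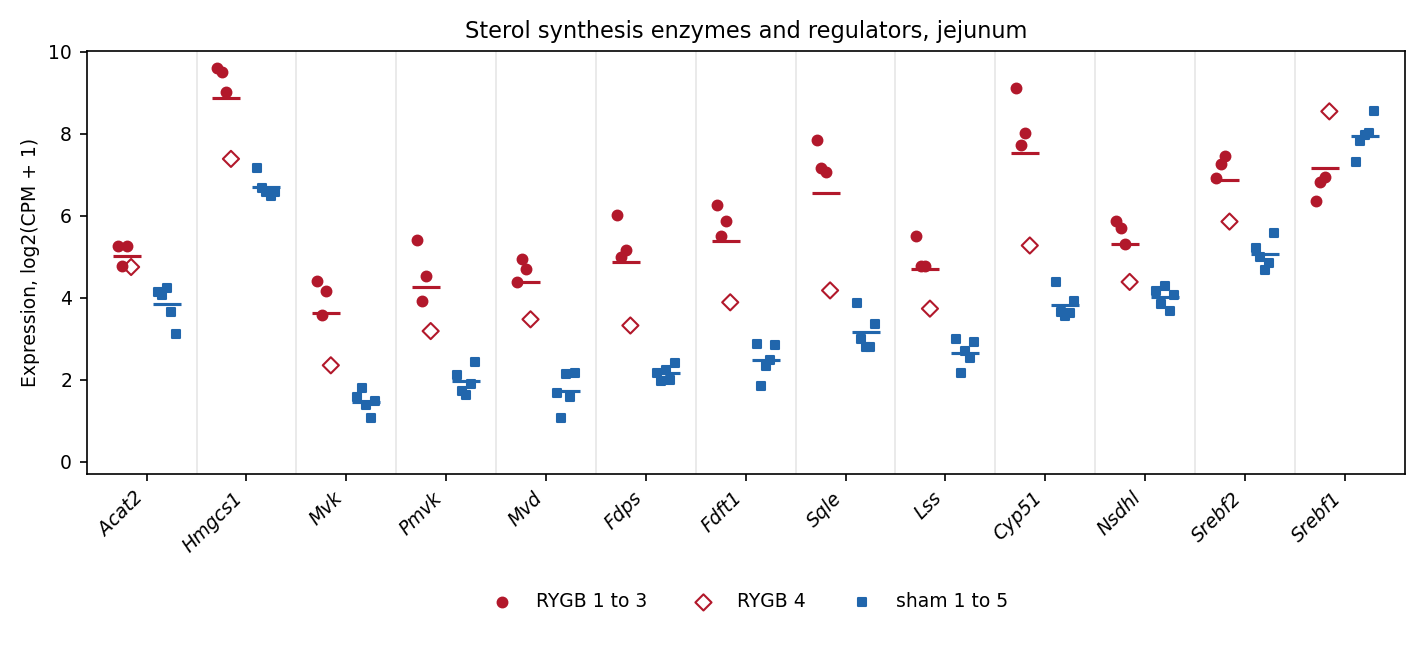
Expression, as log2(CPM + 1), of 11 sterol synthesis enzymes followed by Srebf2 and Srebf1 in each jejunal library; for each gene the RYGB libraries stand left (filled circles, RYGB 4 as an open diamond) and the sham libraries right (squares), with a line at each group's mean. The 3 filled circles lie above every square for all genes but Srebf1, and the diamond is the lowest RYGB value for each of those genes.

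Regulators of the pathway did not move as 1 block. Of 21 genes of sterol sensing, uptake and efflux 4 rose and 3 fell, with a median of -0.05, and 4 rose and 5 fell without RYGB 4. The 4 rises became 2 without sham 2 or sham 4, and the 3 falls became 0 without RYGB 1, RYGB 3, sham 1 or sham 2 and 1 without sham 3 or sham 4. Srebf2 itself had 119.7, 151, 175 and 57 CPM in RYGB, against 35.8, 31.1, 24.4, 27.6 and 46.6 CPM in sham (log2 fold change 1.81 ± 0.31, adjusted p = 0.00785). Its groups did not overlap, with RYGB 4 nearest to the sham range. Srebf1, the paralogue that drives fatty acid synthesis, had 81.3, 111, 123 and 373 CPM in RYGB, against 158, 225, 249, 261 and 378 CPM in sham (log2 fold change -0.77 ± 0.41, adjusted p = 0.228). Its groups overlapped through RYGB 4, which was near the top of the sham range, and without RYGB 4 the log2 fold change was -1.23 (adjusted p = 0.00801). Insig1, which holds SREBP precursors in the endoplasmic reticulum, had 256, 255, 191 and 73.7 CPM in RYGB, against 59.1, 74.3, 82.8, 62.3 and 63.5 CPM in sham (log2 fold change 1.35 ± 0.33, adjusted p = 0.0267). RYGB 4 lay inside the sham range for Insig1, and the call was lost without RYGB 1, 2 or 3 or sham 1, 2 or 4 (highest adjusted p 0.0723) and with median-of-ratios scaling (adjusted p = 0.0504).

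Promoter sequences of the sterol enzymes are shown because binding elements of SREBP-2 and NF-Y are known to lie near the starts of such genes. RefSeq promoters (GRCm38.p6, 250 bases before to 50 after a start) were found for 16 of the 21 measured enzymes, and for 8446 of the genes in the table. CCAAT, searched on both strands, was present for 15 of the 16 enzymes (93.8%), against 42.8% of all genes with a promoter, 44.1% of the genes called higher and 45.6% of those called lower. In other lists it was present for 75% of clock genes, 54.5% of PPARA targets and 37.5% of glycolytic genes with a promoter, so a high share was not particular to the sterol enzymes. TCACNCCAC, a core of the sterol regulatory element, was present for 1 of the 16 enzymes, Hmgcs1, against 1.4% of all genes. Below are the 250 bases before the start of Hmgcs1, chr13:119690101-119690350 on the plus strand, with TCACNCCAC and CCAAT matches in capitals, and of Mvd, chr8:122443423-122443672 on the minus strand, and Lss, chr10:76531355-76531604 on the plus strand, with CCAAT matches in capitals; ATTGG is CCAAT read on the other strand.
Hmgcs1: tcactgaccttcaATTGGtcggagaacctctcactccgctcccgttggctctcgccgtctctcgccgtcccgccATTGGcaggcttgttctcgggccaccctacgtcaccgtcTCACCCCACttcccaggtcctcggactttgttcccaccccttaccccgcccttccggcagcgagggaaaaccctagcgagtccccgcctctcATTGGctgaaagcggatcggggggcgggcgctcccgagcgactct
Mvd: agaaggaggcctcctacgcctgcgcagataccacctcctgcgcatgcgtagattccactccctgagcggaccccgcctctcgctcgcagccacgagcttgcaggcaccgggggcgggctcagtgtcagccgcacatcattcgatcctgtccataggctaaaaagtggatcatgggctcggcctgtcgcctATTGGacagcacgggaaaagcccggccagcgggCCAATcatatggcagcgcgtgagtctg
Lss: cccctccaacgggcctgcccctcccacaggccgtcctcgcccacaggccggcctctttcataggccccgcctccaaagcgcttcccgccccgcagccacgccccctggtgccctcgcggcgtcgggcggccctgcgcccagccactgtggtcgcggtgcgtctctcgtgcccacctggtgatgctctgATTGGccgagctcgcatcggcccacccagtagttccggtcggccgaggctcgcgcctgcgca
In the Hmgcs1 sequence TCACCCCAC begins 137 bases before the start, and 3 CCAAT matches flank it at 237, 176 and 45 bases. The Mvd matches begin at 60 and 27 bases and the Lss match at 62 bases before the start. Mvd and Lss were chosen after the motif counts were seen, as the enzymes with the smallest adjusted p that hold CCAAT. A match of letters does not show that a factor binds there.

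Fatty acid synthesis genes were higher too, in a looser set. Of 18 measured genes 6 rose and none fell, with a median of 0.66, and 6 rose without RYGB 4 as well. The count was 2 without RYGB 1, RYGB 3 or sham 4 and 3 without sham 1, 2 or 3. Fasn, fatty acid synthase, had 20.7, 27.4, 42.6 and 25.7 CPM in RYGB, against 8.9, 5.1, 4.1, 3.6 and 8 CPM in sham (log2 fold change 2.14 ± 0.28, adjusted p = 0.00326). Pklr, the pyruvate kinase of liver and gut, had 1126, 999, 1295 and 654 CPM in RYGB, against 278, 281, 413, 271 and 381 CPM in sham (log2 fold change 1.63 ± 0.22, adjusted p = 0.00353). The groups did not overlap for either gene, and for Fasn RYGB 4 lay among the other RYGB libraries.

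A pair of lipid entry genes, Cd36 and Slc27a2, fell. The list of 19 genes of lipid uptake and chylomicron assembly had a median log2 fold change of 0.25 with 12 of 19 above 0. Over all genes the median was 0.08, with 6257 of 11021 above 0. Cd36, a fatty acid translocase of the brush border, had 83.4, 73.5, 84.9 and 720 CPM in RYGB, against 1509.7, 1533, 2395, 1482 and 1293 CPM in sham (log2 fold change -3.51 ± 0.60, or -4.30 without RYGB 4, adjusted p = 0.00863). RYGB 1, 2 and 3 lay close together, far below RYGB 4, which was itself below all sham libraries. Slc27a2, a very-long-chain acyl-CoA synthetase, had 188, 84.5, 178 and 535 CPM in RYGB, against 1386, 1422, 816, 896 and 1293 CPM in sham (log2 fold change -2.51 ± 0.44, adjusted p = 0.00959), again without overlap. Of the 19 genes these 2 fell and 1 rose, beside 6.29% and 6.32% over all genes. The 1 rise became 0 without RYGB 1, RYGB 3 or any 1 of the sham libraries, and 2 rose and 3 fell without RYGB 4. Apob, the protein core of chylomicrons, had a log2 fold change of -0.59 ± 0.28 (adjusted p = 0.185). Fabp1, a cytosolic fatty acid carrier, had 1.33 ± 0.52 (adjusted p = 0.114).

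Of 14 measured genes of PPARA and its textbook targets 7 fell and none rose, with a median of -1.04, and 12 fell without RYGB 4. The 7 became 3 without RYGB 1, RYGB 3 or sham 1 and 4 without sham 2 or sham 4. Cyp4a10, a fatty acid omega-hydroxylase, had 1.7, 0.3, 1 and 12.3 CPM in RYGB, against 54.2, 64.3, 54.5, 22.9 and 26.8 CPM in sham (log2 fold change -3.76, or -4.46 without RYGB 4). Acot4, a peroxisomal thioesterase, had 43.9, 28.9, 34.8 and 47 CPM in RYGB, against 75.6, 85.2, 73.6, 74.3 and 76.6 CPM in sham (log2 fold change -1 ± 0.16, adjusted p = 0.00666). Ppara, the nuclear receptor itself, had 17.5, 24.2, 11.2 and 47.8 CPM in RYGB, against 66.3, 85.6, 46.8, 61.9 and 53.9 CPM in sham (log2 fold change -1.45 ± 0.35, adjusted p = 0.0248). Acot4 was without overlap, whereas for Ppara RYGB 4 lay inside the sham range. Cyp4a10 is listed through sham alone, which favours a gap between the groups. The Ppara call was lost without RYGB 1 or 3 or sham 1, 2 or 4 (highest adjusted p 0.0698). Of 25 genes of fatty acid oxidation and ketone synthesis 2 fell and none rose, beside 6.29% and 6.32% over all genes, so the share that fell is near that background. Their median was 0.14, with 14 of 25 above 0, beside 0.08 and 6257 of 11021 over all genes. The 2 falls became 1 without RYGB 1, RYGB 3, sham 3 or sham 4 and 0 without sham 1 or sham 2. Rises numbered 4 without RYGB 2, 2 without RYGB 4 and 1 without sham 5.

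Enzymes of glucose use were among the higher genes. Of 17 glycolytic genes 8 rose and none fell, all 17 had a log2 fold change above 0, and the median was 1.02. Without RYGB 4, 11 rose. The 8 became 5 without sham 1 or sham 3, 4 without RYGB 1 or sham 2 and 3 without RYGB 3 or sham 4. Gpi1, phosphoglucose isomerase, had 622, 354, 704 and 237 CPM in RYGB, against 165, 162, 145, 140.4 and 182 CPM in sham (log2 fold change 1.47 ± 0.29, adjusted p = 0.0127). Pfkp, a phosphofructokinase, had 453, 489.8, 454 and 380.2 CPM in RYGB, against 226, 217, 124, 217 and 214 CPM in sham (log2 fold change 1.18 ± 0.20, adjusted p = 0.00688). All RYGB libraries exceeded all sham libraries for both, and RYGB 4 was lowest. Tpi1, triosephosphate isomerase, rose by 1.18 ± 0.26. Of 7 pentose phosphate enzymes 4 rose, among them transketolase, Tkt, with 469, 300.2, 474 and 231 CPM in RYGB, against 122, 144, 97.7, 131 and 168 CPM in sham (log2 fold change 1.43 ± 0.24, adjusted p = 0.00728). That count was 1 without RYGB 1 or sham 2 and 2 without RYGB 3 or sham 1.

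Sugar transporters did not follow the enzymes: 1 of 12 rose and 4 fell. Slc2a1, the basolateral transporter GLUT1, had 65.2, 97.8, 103 and 28.8 CPM in RYGB, against 12.5, 14.4, 31.8, 14 and 16.4 CPM in sham (log2 fold change 1.92 ± 0.39, adjusted p = 0.0157). RYGB 4 lay below the highest sham library for Slc2a1, while RYGB 1, 2 and 3 were above all sham libraries. Slc2a7, a hexose transporter of the gut, had 30.9, 21.8, 25.5 and 25.6 CPM in RYGB, against 93.2, 68, 85.3, 68.7 and 57.9 CPM in sham (log2 fold change -1.48 ± 0.17, adjusted p = 0.0027). Slc5a4b, a relative of the sodium-glucose cotransporter, had 31.1, 25.3, 46 and 359 CPM in RYGB, against 457, 443, 495, 601 and 452 CPM in sham (log2 fold change -2.99 ± 0.64, or -3.84 without RYGB 4, adjusted p = 0.0188). Both were lower without overlap, with RYGB 4 among its group for Slc2a7 and close to sham for Slc5a4b. The call of Slc5a4b was lost without RYGB 1 or RYGB 3 (highest adjusted p 0.0521), and the count of 4 falls became 2 without RYGB 1, RYGB 3 or sham 1. Slc2a2, the exit transporter GLUT2, had -0.84 ± 0.29 (adjusted p = 0.0814).

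Subunits of the respiratory chain were mostly above 0, and mitochondrial carriers were evenly divided. Of 74 nuclear subunits of the respiratory chain and ATP synthase 13 rose and none fell, 70 were above 0, and the median was 0.63. That count depended on single libraries: it was 1 without RYGB 1 or RYGB 3, 2 without sham 4, 3 without sham 1 or sham 2, 5 without sham 3 or sham 5, 23 without RYGB 4 and 25 without RYGB 2. Uqcrc1, a core subunit of complex III, had 450.3, 396, 685 and 415 CPM in RYGB, against 219, 268, 142, 186 and 257 CPM in sham (log2 fold change 1.18 ± 0.23, adjusted p = 0.0122). Ckmt1, a mitochondrial creatine kinase, had 1708, 1294, 2045 and 1478 CPM in RYGB, against 766, 857, 342, 669 and 648 CPM in sham (log2 fold change 1.36 ± 0.26, adjusted p = 0.0121). Neither overlapped between the groups. Of 36 mitochondrial carrier genes 1 rose and 2 fell, beside 6.32% and 6.29% over all genes, with 18 above 0 and a median of 0. The 1 rise became 0 without RYGB 1, RYGB 3 or sham 1, 2 or 4 and 3 without RYGB 2 or RYGB 4, and the 2 falls became 5 without RYGB 4. Idh1, the cytosolic isocitrate dehydrogenase that supplies NADPH, fell, with 366, 342, 224 and 503 CPM in RYGB, against 836, 843, 709, 643 and 743 CPM in sham (log2 fold change -1.12 ± 0.22, adjusted p = 0.0121), and its groups did not overlap.

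Among 17 measured NRF2 targets of glutathione and thioredoxin metabolism 4 rose and 2 fell, the 4 rises became 2 without RYGB 3, and the 2 falls became 0 without sham 1 or sham 2 and 1 without RYGB 3 or sham 4. Gpx2, the glutathione peroxidase of the gut epithelium, had 1239, 145, 2244 and 56.9 CPM in RYGB, against 17.4, 9.7, 21.5, 22.9 and 11.9 CPM in sham (log2 fold change 4.54 ± 0.93, or 3.70 without RYGB 3 and 5.46 without RYGB 4, adjusted p = 0.0172). Gsr, glutathione reductase, had 515, 383, 1069.5 and 233 CPM in RYGB, against 81.2, 78.6, 136, 117 and 75.3 CPM in sham (log2 fold change 2.30 ± 0.38, adjusted p = 0.0077). The RYGB libraries differed widely among themselves, with RYGB 1 and 3 highest and RYGB 4 lowest for both genes, and all were above the sham libraries.

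**Figure D3:**
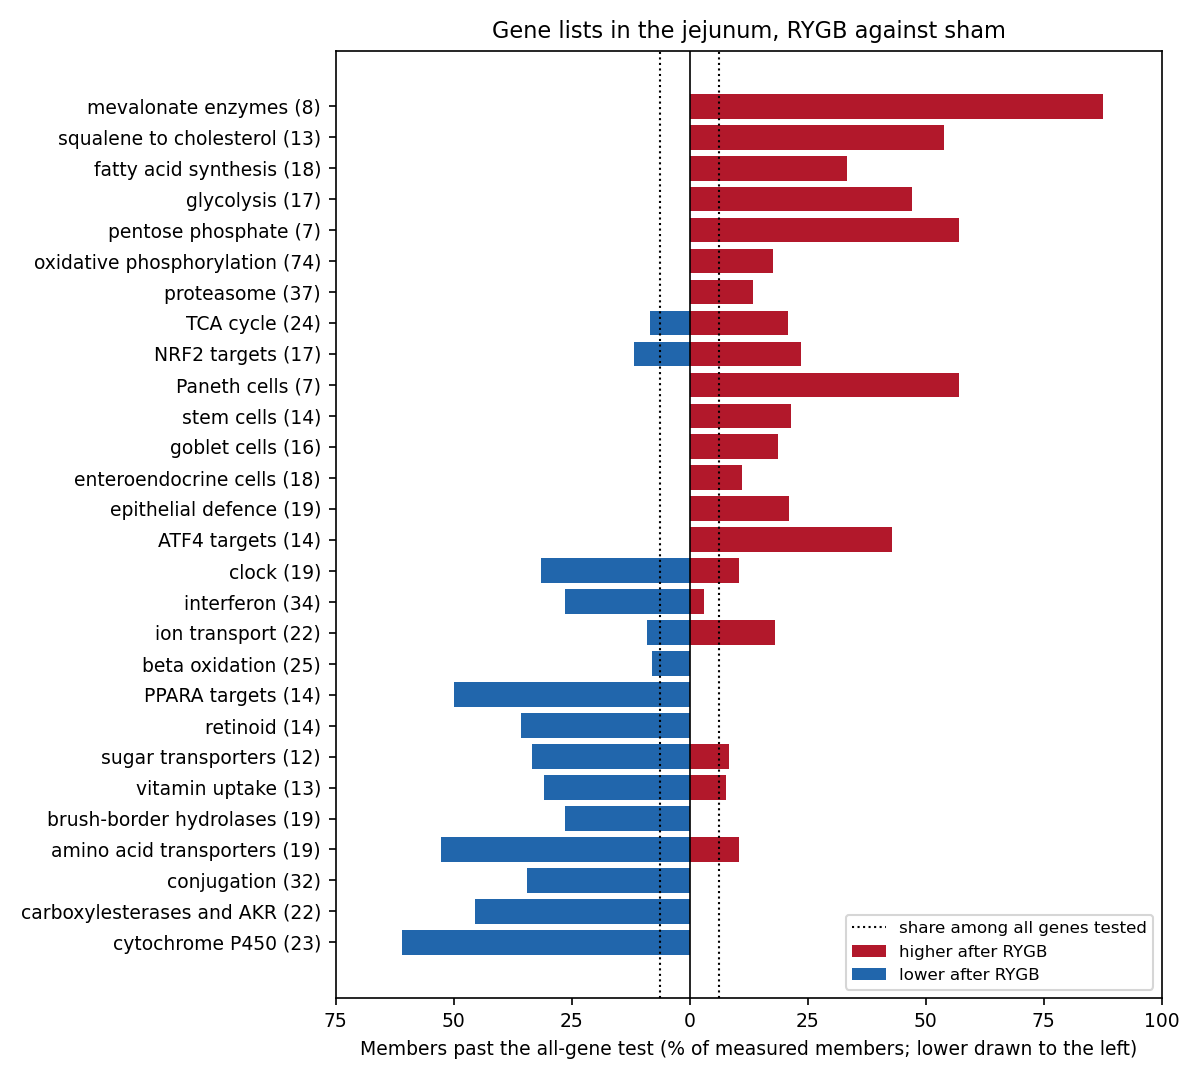
Share of the measured members of 28 gene lists (number measured in brackets) that passed the all-gene test, higher after RYGB to the right and lower to the left, in percent. Dotted lines mark the shares over all genes tested, 6.32% higher and 6.29% lower; mevalonate enzymes reach furthest right and cytochrome P450 genes furthest left.

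Part of the brush-border digestion genes fell. Of 19 disaccharidases, peptidases and alkaline phosphatases 5 fell and none rose, with a median of -0.47, and 9 fell without RYGB 4. The 5 became 3 without RYGB 1, RYGB 3 or sham 2. Ace, angiotensin-converting enzyme and a dipeptidase of the villus surface, had 1219.8, 1258, 1095 and 2853 CPM in RYGB, against 5824, 5933, 4296, 4871 and 5848 CPM in sham (log2 fold change -1.84 ± 0.28, adjusted p = 0.0051). Mme, neprilysin, had 1925, 1551, 1219 and 2732 CPM in RYGB, against 4933, 4507, 3972, 3964 and 3722 CPM in sham (log2 fold change -1.24 ± 0.23, adjusted p = 0.0107). Treh, trehalase, had 900.1, 790, 889 and 1235 CPM in RYGB, against 2197, 2280.3, 2657, 2451 and 2578 CPM in sham (log2 fold change -1.37 ± 0.17, adjusted p = 0.00296). Groups were apart for all 3, and RYGB 4 was the RYGB library nearest to sham each time.

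Many amino acid and peptide carriers fell. Of 19 measured carriers 10 fell and 2 rose, with a median of -0.59, and 11 fell and 2 rose without RYGB 4. The 10 became 5 without RYGB 1, sham 1 or sham 4 and 6 without RYGB 3 or sham 2, and the 2 rises became 1 without RYGB 1, RYGB 3 or sham 2, 3 or 4. Slc15a1, the proton-coupled peptide transporter PEPT1, had 763, 523, 521 and 975 CPM in RYGB, against 1717, 1533, 1382, 1809 and 1838 CPM in sham (log2 fold change -1.29 ± 0.21, adjusted p = 0.00677). Slc6a19, the main apical carrier of neutral amino acids, had 879.6, 944, 779 and 1672 CPM in RYGB, against 3012, 2346, 4159, 3892 and 3296 CPM in sham (log2 fold change -1.68 ± 0.25, adjusted p = 0.00544). Slc6a20a, an apical proline carrier, had 75.6, 39.5, 95.8 and 795 CPM in RYGB, against 2534, 2477, 2140.3, 1822 and 1834 CPM in sham (log2 fold change -4.11 ± 0.69, or -4.999 without RYGB 4, adjusted p = 0.00817). In each case the highest RYGB library was RYGB 4 and it stayed below the lowest sham library. Slc6a20a (chromosome 9 from 123634770 to 123678885) and its near-identical neighbour Slc6a20b (chromosome 9 from 123590800 to 123632565, both GRCm38) may share reads, and Slc6a20b had a log2 fold change -3.93, or -4.66 without RYGB 4. Slc7a15 (-2.02 ± 0.39) and the proton-coupled carrier gene Slc36a1 (-0.96 ± 0.20) fell too. Slc7a5, a basolateral carrier of large amino acids that growing cells use, was higher at low levels, with 2.3, 5.1, 6.3 and 3.8 CPM in RYGB, against 1, 0.5, 0.7, 0.5 and 1.5 CPM in sham (log2 fold change 1.51). It is listed through RYGB alone, which favours that gap.

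Vitamin carriers moved both ways. Of 13 measured genes 4 fell and 1 rose, and 6 fell and 3 rose without RYGB 4. Slc19a2, a thiamine transporter, had 24.6, 19.9, 17.9 and 21.7 CPM in RYGB, against 69.7, 87.4, 79.4, 55.7 and 57.9 CPM in sham (log2 fold change -1.68 ± 0.17, adjusted p = 0.0027). Slc23a1, the sodium-dependent vitamin C transporter, had 43.5, 57.2, 59.5 and 176 CPM in RYGB, against 283, 263, 380, 306 and 264 CPM in sham (log2 fold change -2.03 ± 0.35, adjusted p = 0.00825). Slc52a3, a riboflavin transporter, had 90.8, 135, 166 and 58.1 CPM in RYGB, against 13.4, 15.6, 25.8, 26.4 and 25.8 CPM in sham (log2 fold change 2.29 ± 0.32, adjusted p = 0.00374). Neither the falls of Slc19a2 and Slc23a1 nor the rise of Slc52a3 showed overlap, and for Slc19a2 the 4 RYGB libraries were close together. The biotin carrier gene Slc5a6 fell (-1.07 ± 0.19). Cubn, cubilin, which takes up cobalamin with intrinsic factor, had 73.2, 9.6, 45.2 and 1100.2 CPM in RYGB, against 1139, 1945, 1314, 2000.4 and 1109 CPM in sham (log2 fold change -4.19 ± 1.03, or -3.22 without RYGB 2 and -5.46 without RYGB 4, adjusted p = 0.0284). RYGB 4 lay just under the lowest sham library while RYGB 1, 2 and 3 were at 73.2 CPM or less. The call was lost without RYGB 1 or 3 or sham 1, 2, 3 or 4 (highest adjusted p 0.073).

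**Figure D4:**
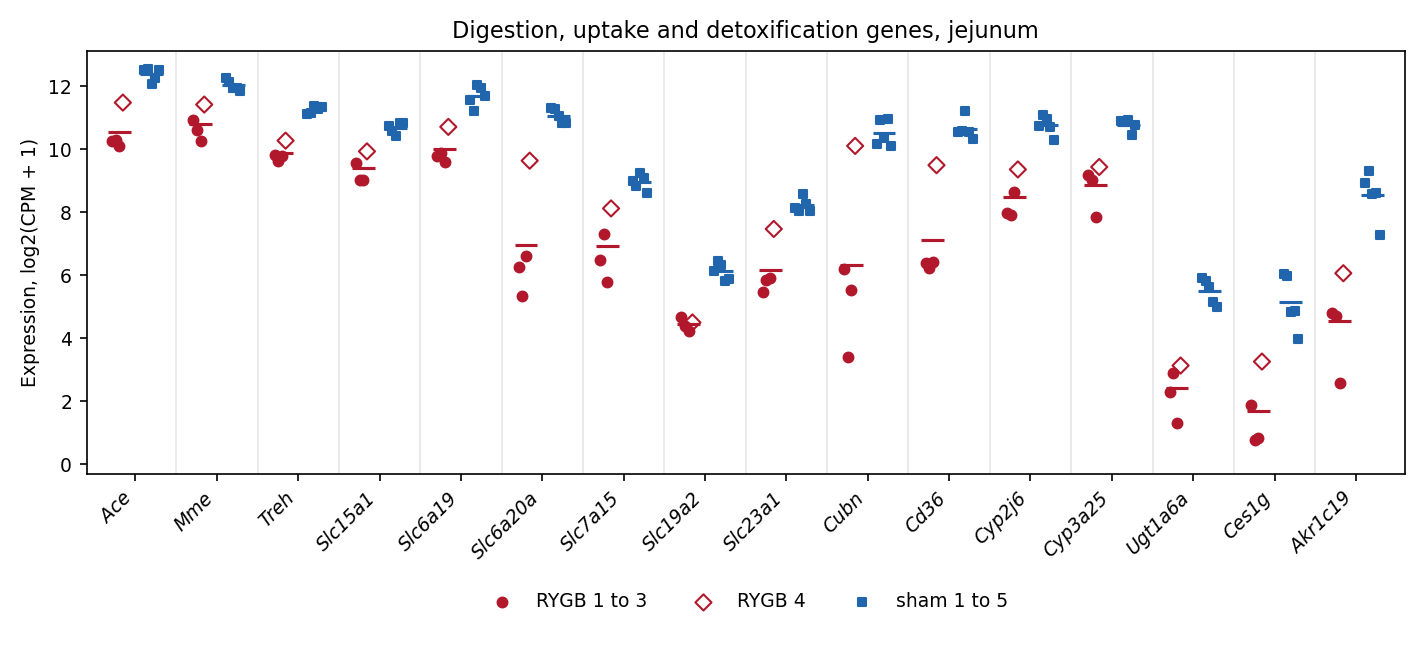
Expression, as log2(CPM + 1), of 16 genes of digestion, uptake and detoxification in each jejunal library; for each gene the RYGB libraries stand left (filled circles, RYGB 4 as an open diamond) and the sham libraries right (squares), with a line at each group's mean. All RYGB libraries lie below all sham libraries, and the diamond is the highest RYGB value for each gene except Slc19a2. Ces1g is listed through sham alone, which favours such a gap.

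Many detoxification genes fell. Of 23 measured cytochrome P450 genes of families CYP1 to CYP3 14 fell and none rose, with a median of -1.19, and 14 fell without RYGB 4. The 14 became 9 without sham 1 and 8 without sham 2. With a minimum mean of 5 CPM, 11 fell. These counts include genes listed through sham alone, such as Cyp2c38. Cyp2j6, an epoxygenase abundant in the gut, had 250.2, 240.3, 402 and 655 CPM in RYGB, against 1700.3, 2163, 2004, 1681 and 1257 CPM in sham (log2 fold change -2.28 ± 0.29, adjusted p = 0.00313). Cyp3a25, of the drug-metabolising CYP3A subfamily, had 578, 514, 228 and 692 CPM in RYGB, against 1892, 1858, 1931, 1397 and 1753 CPM in sham (log2 fold change -1.91 ± 0.29, adjusted p = 0.00541). Cyp2c38, of the CYP2C subfamily, had 0.4, 0, 0 and 0.7 CPM in RYGB, against 10.9, 13.2, 13.1, 9.2 and 4 CPM in sham. For Cyp2j6 and Cyp3a25 all RYGB libraries were below all sham libraries. No RYGB library reached 1 CPM of Cyp2c38, so it is in the table only through the sham libraries. Cyp2j9 fell by 3.03 ± 0.46 on the log2 scale. Reads of these families may be divided uncertainly between near-identical copies.

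Conjugating enzymes and hydrolases followed. Of 32 UDP-glucuronosyl-, glutathione S- and sulfotransferases 11 fell and none rose, and of 22 carboxylesterases and aldo-keto reductases 10 fell and none rose; without RYGB 4 the falls were 13 and 11 and the rises 2 and 1. Without RYGB 2, 1 gene of each list rose. The 11 falls became 7 without RYGB 3, sham 2 or sham 3 and 6 without sham 1, and the 10 became 5 without sham 1 or sham 2 and 6 without sham 4. Ugt1a6a, a glucuronosyltransferase of phenols, had 3.9, 6.5, 1.5 and 7.8 CPM in RYGB, against 59.7, 55.2, 48.8, 34.3 and 30.7 CPM in sham (log2 fold change -3.09 ± 0.36, adjusted p = 0.0027). Ugt2b5, of the UGT2B subfamily, had 3.9, 3.5, 2.7 and 19.4 CPM in RYGB, against 170.1, 156, 72, 58.6 and 52.7 CPM in sham (log2 fold change -3.83 ± 0.54, adjusted p = 0.00456). Akr1c19, an aldo-keto reductase, had 26.7, 25.1, 5 and 66 CPM in RYGB, against 483, 637, 383, 386 and 153 CPM in sham (log2 fold change -4.00 ± 0.62, or -3.35 without RYGB 3, adjusted p = 0.00666). The lowest sham library was still above the highest RYGB library for these 3, and sham 3, 4 and 5 were below sham 1 and 2 for Ugt2b5. The carboxylesterase gene Ces1g was lower (log2 fold change -3.45). It is counted among the 10 falls, though it is listed through sham alone. Xenobiotic receptors and efflux pumps did not follow as a list: of 12 measured 1 rose and 2 fell, with a median of -0.01. Over all genes 6.32% rose and 6.29% fell. The 1 rise became 0 without RYGB 1, 2 or 3 or any 1 of the sham libraries and 2 without RYGB 4. The 2 falls became 4 without RYGB 1. Nr1i3, the nuclear receptor CAR that controls many such genes, had 73.4, 74.9, 72.8 and 58.3 CPM in RYGB, against 188, 180.4, 142, 159.6 and 131 CPM in sham (log2 fold change -1.18 ± 0.15, adjusted p = 0.00313). Here RYGB 4 was the lowest library of all. Abcc6, an efflux pump of the same family as the multidrug resistance proteins, had a log2 fold change of -2.45 ± 0.32.

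Of 22 measured genes of ion transport 4 rose and 2 fell, with a median of -0.18, beside 6.32% and 6.29% over all genes; the share that fell is near that background. The 4 rises became 2 without RYGB 3 or sham 2. The 2 falls became 5 without RYGB 4, 4 without RYGB 2 and 1 without RYGB 3 or sham 1, 2 or 4. Slc9a3, the apical sodium-proton exchanger NHE3, had 604, 624, 1107 and 185 CPM in RYGB, against 86.2, 98.4, 87.4, 74.2 and 98.7 CPM in sham (log2 fold change 2.56 ± 0.41, adjusted p = 0.00689). Slc4a7, a sodium-bicarbonate cotransporter, had 171, 167, 105 and 107 CPM in RYGB, against 1439, 1037, 863, 588 and 368 CPM in sham (log2 fold change -2.53 ± 0.36, adjusted p = 0.00476). Kcnq1, a basolateral potassium channel, had 11.4, 7, 10.9 and 11.8 CPM in RYGB, against 2.5, 2.7, 2.2, 2 and 1.7 CPM in sham (log2 fold change 1.79 ± 0.21, adjusted p = 0.0027). These groups were apart, with the sham libraries of Slc4a7 spread over 368 to 1439 CPM. Slc5a8, a transporter of short monocarboxylates known best from the colon and ileum, had 256, 716, 524 and 367 CPM in RYGB, against 4.3, 8.8, 42.3, 92.8 and 127 CPM in sham (log2 fold change 3.83 ± 0.88, or 3.19 without sham 1, adjusted p = 0.0226). It was without overlap, and its call was lost without RYGB 3 or sham 2 (highest adjusted p 0.0589) and with library weights (adjusted p = 0.081). Otop3, a proton channel of the otopetrin family, was lower (log2 fold change -3.39).

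Aqp1, the water channel gene, had 20.4, 4.6, 4.1 and 222 CPM in RYGB, against 311, 252, 379.5, 389 and 294 CPM in sham (log2 fold change -4.07 ± 0.93, or -3.47 without RYGB 2, -3.43 without RYGB 3 and -5.25 without RYGB 4, adjusted p = 0.0225). RYGB 4 lay below the lowest sham library and far above RYGB 1, 2 and 3. The call was lost without RYGB 1 or 3 or sham 1, 2, 3 or 4 (highest adjusted p 0.0588). Aqp8, another water channel gene, was listed at 0 in RYGB 1, 2 and 3 and at 0.5 CPM in RYGB 4, against 4.3, 3, 3.3, 1.8 and 1.5 CPM in sham. No RYGB library reached 1 CPM, so it is in the table only through the sham libraries.

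Markers of the crypt base were higher in the RYGB libraries. Of 7 measured Paneth cell markers 4 rose and none fell, with a median of 2.63, and the summed level of the list was 246 to 458 CPM in RYGB and 49.1 to 141 CPM in sham libraries. Without sham 2 the count was 2, and without RYGB 4 it was 5. Mmp7, the protease that activates defensins, had 11.8, 55.3, 13.4 and 23.4 CPM in RYGB, against 2.3, 0.3, 0.8, 1.7 and 2 CPM in sham (log2 fold change 3.29). Defa24, a defensin, had 27, 18.8, 24.7 and 21.5 CPM in RYGB, against 5.1, 1.2, 0.4, 1.8 and 8.3 CPM in sham (log2 fold change 2.79 ± 0.49, adjusted p = 0.00977). Lyz1, Paneth cell lysozyme, had 78.4, 119.9, 54.9 and 132 CPM in RYGB, against 23.9, 8, 3.7, 14.4 and 43.9 CPM in sham (log2 fold change 2.63 ± 0.58, adjusted p = 0.0202). For Defa24 and Lyz1 all RYGB libraries, RYGB 4 included, were above all sham libraries, and RYGB 4 was the highest library for Lyz1. The gap of Mmp7 is favoured by its listing through RYGB alone. The Lyz1 call was lost without sham 2 (adjusted p = 0.0558).

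Of 14 measured intestinal stem cell markers 3 rose and none fell, and the list summed to 258 to 334 CPM in RYGB and 81.2 to 130 CPM in sham libraries. Without RYGB 2 the count was 5. Axin2, a feedback target of Wnt signalling, had 21.7, 17.8, 46 and 23.1 CPM in RYGB, against 5.8, 5, 4.8, 8.2 and 10.1 CPM in sham (log2 fold change 1.81 ± 0.30, adjusted p = 0.00675). Ephb2, a receptor that keeps crypt cells in place, had 15.7, 21.8, 15.7 and 10.8 CPM in RYGB, against 3.8, 4.7, 2.2, 2.5 and 6.4 CPM in sham (log2 fold change 1.82 ± 0.29, adjusted p = 0.00646). Prom1, prominin, had 106, 163, 101 and 50.2 CPM in RYGB, against 27.8, 26.1, 19.4, 18.8 and 23.8 CPM in sham (log2 fold change 2.03 ± 0.29, adjusted p = 0.00391). Groups were apart for all 3. Ctnnb1, beta-catenin of the same pathway, rose by 0.76 ± 0.15. Lgr5, the defining marker of crypt base stem cells, had 6.6, 0.8, 4.6 and 4.6 CPM in RYGB, against 1.3, 1.6, 0.9, 1.8 and 2.3 CPM in sham (log2 fold change 0.84). It overlapped through RYGB 2 and was not called. Mki67, a marker of dividing cells, had 7, 8.1, 47.5 and 32 CPM in RYGB, against 12.5, 3.1, 0.5, 2.1 and 5 CPM in sham, with overlap through RYGB 1 and 2 (adjusted p = 0.074), and of 21 measured cell cycle genes 1 rose, a count of 7 without RYGB 2 and 0 without sham 2. Cell cycle genes summed to 95.8 to 333 CPM in RYGB and 70.4 to 144 CPM in sham libraries, and what part crypt cells in the scrapings had in these differences was not tested.

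Goblet and enteroendocrine cells are the other secretory lines. Of 16 goblet cell genes and mucins 3 rose, among them the membrane mucin gene Muc4, with 126, 243, 139 and 21 CPM in RYGB, against 11.1, 5.4, 3.4, 9.1 and 15.3 CPM in sham (log2 fold change 3.47 ± 0.64, or 4.19 without RYGB 4, adjusted p = 0.0117). Spink4, a protease inhibitor of goblet cells, had 47, 18.9, 30.4 and 7.5 CPM in RYGB, against 3.6, 2.8, 1.2, 2 and 5 CPM in sham (log2 fold change 2.60 ± 0.47, adjusted p = 0.0107). Neither overlapped. Without RYGB 4, 1 gene of the list fell. The enteroendocrine list also holds Vil1, villin, which is counted among the enterocyte markers as well and had 1027 to 2416 CPM in the duodenal libraries. Its sum is therefore not a measure of hormone cells alone. Of 18 measured genes of this list 2 rose and none fell, and the list summed to 2574 to 4206 CPM in RYGB and 1348 to 2448 CPM in sham libraries. The 2 became 1 without RYGB 1, RYGB 4, sham 1 or sham 4 and 0 without RYGB 3, sham 2 or sham 3, and 1 fell without RYGB 1. Gcg, which encodes GLP-1 and GLP-2, had 15.5, 7.6, 7.4 and 11.5 CPM in RYGB, against 7.4, 6, 3.6, 2.8 and 2.8 CPM in sham (log2 fold change 1.08 ± 0.31, adjusted p = 0.0447). RYGB 1 and RYGB 4 were above the sham range, RYGB 2 was just above it and RYGB 3 equalled its top. The Gcg call was lost without RYGB 1, 3 or 4 or sham 2, 3, 4 or 5 (highest adjusted p 0.116), with median-of-ratios scaling (adjusted p = 0.0508) and with library weights (adjusted p = 0.124). Pyy, peptide YY, had 3.7, 0.7, 10.4 and 2.7 CPM in RYGB, against 0.3, 0.2, 0.1, 0.2 and 1.7 CPM in sham (log2 fold change 1.60 ± 0.49, adjusted p = 0.0537), with overlap through RYGB 2. It passed with a pseudocount of 0.1 (adjusted p = 0.0409), with median-of-ratios scaling (adjusted p = 0.0445) and with library weights (adjusted p = 0.0177).

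Mucosal defence genes split the RYGB libraries. Of 19 epithelial oxidases and inducible defence genes 4 rose and none fell, and 10 rose and 1 fell without RYGB 4. The 4 became 1 without RYGB 1, sham 1 or sham 2 and 2 without RYGB 3, sham 3 or sham 4. Duox2, the hydrogen peroxide-producing dual oxidase, had 1727, 714, 3009 and 10.6 CPM in RYGB, against 1.6, 1, 2.9, 11.6 and 16.3 CPM in sham (log2 fold change 6.41 ± 1.44, or 5.77 without RYGB 1, 5.50 without RYGB 3 and 8.18 without RYGB 4, adjusted p = 0.0212). RYGB 4 lay inside the sham range, and RYGB 1, 2 and 3 were at 714 CPM or more. The call was lost without RYGB 1 or 3 or sham 1 or 2 (highest adjusted p 0.0603). Reg family lectins form a separate list, and of 6 measured 2 rose and 2 fell, with a median of -0.71. The 2 rises became 1 without RYGB 1, RYGB 3 or sham 1, 3 or 4 and 0 without sham 2. The 2 falls became 1 without RYGB 1 or sham 1 and 0 without RYGB 3, sham 2 or sham 4. Reg3g, an antibacterial lectin of this list, had 1848, 6437, 2688 and 463 CPM in RYGB, against 51.7, 49.5, 44.4, 175 and 589.5 CPM in sham (log2 fold change 4.23 ± 0.89, or 4.92 without RYGB 4 and 4.86 without sham 5, adjusted p = 0.0179). Here too RYGB 4 was inside the sham range, below sham 5, and the call was lost without sham 2 (adjusted p = 0.0503). Ccl28, a chemokine of mucosal epithelia, had 20.2, 48.3, 8.8 and 24 CPM in RYGB, against 5.6, 2.8, 8.6, 3.3 and 4.2 CPM in sham (log2 fold change 2.01 ± 0.43, adjusted p = 0.0179), and Tgm2, tissue transglutaminase, had 271, 639.8, 245 and 66.4 CPM in RYGB, against 22.4, 15.6, 31.2, 32.1 and 21.8 CPM in sham (log2 fold change 3.22 ± 0.53, or 3.82 without RYGB 4, adjusted p = 0.00723). Both of these were apart in all libraries, RYGB 3 by a small margin for Ccl28.

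Interferon-stimulated genes ran lower. Of 34 measured genes 9 fell and 1 rose, with a median of -0.49, and 8 fell and 1 rose without RYGB 4. The 9 became 5 without RYGB 1, sham 3, sham 4 or sham 5 and 3 without sham 1 or sham 2, and the 1 rise became 0 without RYGB 1, RYGB 3 or any 1 of the sham libraries. Ifit1, an antiviral RNA-binding protein, had 85.7, 59.1, 34.2 and 103 CPM in RYGB, against 344, 210.1, 332, 167 and 203 CPM in sham (log2 fold change -1.87 ± 0.33, adjusted p = 0.00922). Ddx60, an antiviral helicase, had 72.3, 33.5, 31 and 82.9 CPM in RYGB, against 301, 148, 206, 109.5 and 146 CPM in sham (log2 fold change -1.75 ± 0.36, adjusted p = 0.0175). Trim30a, of the TRIM family, had 17.3, 6, 16.2 and 17.2 CPM in RYGB, against 83, 35.5, 57.5, 34.2 and 51.6 CPM in sham (log2 fold change -1.84 ± 0.34, adjusted p = 0.0113). The RYGB libraries were below all sham libraries in each case. Naip5, an inflammasome receptor for flagellin, had 81.3, 107, 146 and 117 CPM in RYGB, against 344, 359.9, 347, 416 and 266 CPM in sham (log2 fold change -1.63 ± 0.19, adjusted p = 0.0027). Naip6, its neighbour on chromosome 13 and a close copy that may share reads, had -1.51 ± 0.18.

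Clock genes moved in both directions. Of 19 measured clock genes 6 fell and 2 rose, with a median of -0.82, and 9 fell and 3 rose without RYGB 4. Arntl, which encodes the activator BMAL1, had 23.5, 36, 49.2 and 73.4 CPM in RYGB, against 6.2, 10.2, 14.7, 9.5 and 22.1 CPM in sham (log2 fold change 1.78 ± 0.38, adjusted p = 0.0177). Dbp, a PAR-bZIP output factor that BMAL1 and CLOCK drive through E-boxes, had 22.8, 2.8, 2 and 2.6 CPM in RYGB, against 95.3, 80.4, 58.1, 72.8 and 31.4 CPM in sham (log2 fold change -3.53 ± 0.58, or -4.22 without RYGB 1, adjusted p = 0.00746). Per3, a period repressor, had 15.6, 8.5, 2.2 and 5.5 CPM in RYGB, against 67.4, 48.7, 62.6, 55.9 and 24.2 CPM in sham (log2 fold change -2.72 ± 0.45, adjusted p = 0.00768). The groups were apart for all 3, RYGB 4 had the highest Arntl value of all libraries, and sham 5 was the sham library nearest to RYGB. Npas2, a partner of BMAL1, had 39.3, 43.4, 51.4 and 59.4 CPM in RYGB, against 17.5, 19.9, 15.6, 22 and 32.9 CPM in sham (log2 fold change 1.16 ± 0.22, adjusted p = 0.0117), and Nr1d2, the repressor REV-ERB beta, had 103, 73.4, 29.9 and 35.5 CPM in RYGB, against 216, 226, 254, 221 and 119 CPM in sham (log2 fold change -1.89 ± 0.36, adjusted p = 0.0131). Tef, another PAR-bZIP factor, had 89.5, 34.3, 17.5 and 28.6 CPM in RYGB, against 151, 138, 119, 162 and 113 CPM in sham (log2 fold change -1.91 ± 0.37, adjusted p = 0.0138). These groups were apart as well. Over the 12 clock genes called without RYGB 4, RYGB 4 lay a median 96.4% of the way from the sham mean to the other RYGB libraries, against 35.1% over all such genes. It was inside the sham range for 3 of the 12 (25%, against 35.7%) and on the RYGB side for 9 (75%, against 79.3%). The same median was 105% over 5 Paneth markers and 158% over 5 ATF4 targets, so it was not particular to clock genes. All mice were collected at the same clock hour, and the labels do not state when each group last ate before the fast.

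The promoters of Per3 and Tef are shown for their clock elements; both genes were chosen after the matches were seen, as called genes that hold one. Of 16 clock genes with a RefSeq promoter 4 held the E-box CACGTG (25%), against 11.8% of all genes of the table, and 1, Per3, held the D-box TTANGTAA, against 1.81%. The other E-box holders, Ciart, Per1 and Cry1, were not called (adjusted p = 0.22, 0.299 and 0.542), and these letters were not found in the Dbp window. The 250 bases before the start are, for Per3, chr4:151044666-151044915 on the minus strand with D-box matches in capitals, and for the first listed Tef start, chr15:81802423-81802672 on the plus strand with the E-box in capitals.
Per3: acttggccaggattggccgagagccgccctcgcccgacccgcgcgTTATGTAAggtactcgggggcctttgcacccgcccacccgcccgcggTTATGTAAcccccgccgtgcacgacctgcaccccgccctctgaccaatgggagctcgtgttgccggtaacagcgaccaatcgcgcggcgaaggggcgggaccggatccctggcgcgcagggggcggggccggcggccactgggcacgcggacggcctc
Tef: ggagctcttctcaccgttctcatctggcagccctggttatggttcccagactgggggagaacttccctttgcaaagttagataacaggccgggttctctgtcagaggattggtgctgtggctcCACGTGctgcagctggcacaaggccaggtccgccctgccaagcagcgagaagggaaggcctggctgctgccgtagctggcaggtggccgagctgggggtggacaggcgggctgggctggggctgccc
The Per3 matches begin 205 and 158 bases before the start, and the Tef match 127 bases before it.

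**Figure D5:**
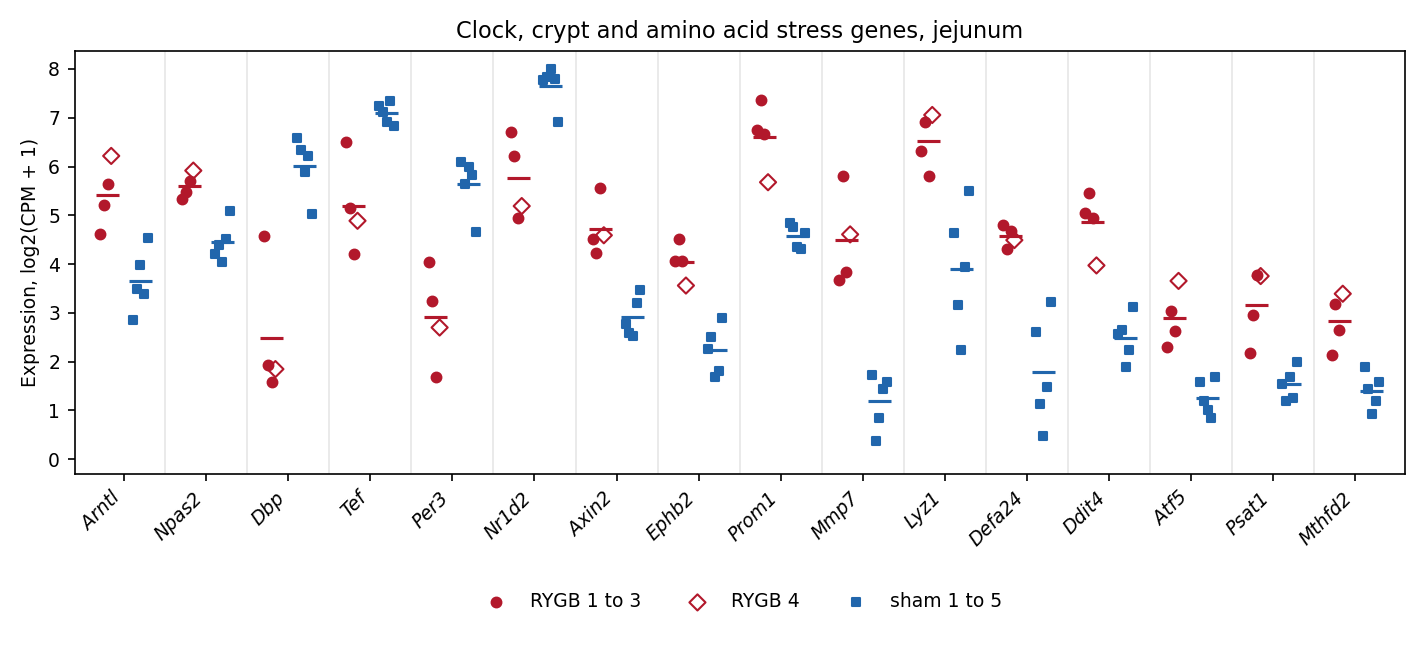
Expression, as log2(CPM + 1), of 6 clock genes, 6 stem and Paneth cell genes and 4 amino acid stress genes in each jejunal library; for each gene the RYGB libraries stand left (filled circles, RYGB 4 as an open diamond) and the sham libraries right (squares), with a line at each group's mean. For Arntl, Npas2, Lyz1, Atf5 and Mthfd2 the diamond is the highest value of all libraries, and no RYGB value overlaps the sham values of any gene shown. Mmp7 is listed through RYGB alone, which favours such a gap.

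Amino acid stress genes rose in part. Of 14 measured ATF4 targets 6 rose and none fell, and 5 rose without RYGB 4. The log2 fold change was above 0 for 8 of them and below 0 for 6, with a median of 0.59. Their summed levels overlapped, with 384 to 528 CPM in RYGB and 310 to 429 CPM in sham libraries. With a minimum mean of 5 CPM, 3 rose and the median was 0.14. That minimum leaves out Atf5 and Mthfd2, each with a mean of 3.9 CPM. Ddit4, an inhibitor of mTORC1 that glucocorticoids also induce, had 32.2, 42.7, 29.9 and 14.7 CPM in RYGB, against 4.9, 5.3, 2.7, 3.7 and 7.7 CPM in sham (log2 fold change 2.37 ± 0.32, adjusted p = 0.00344). Atf5, a transcription factor of the same response, had 3.9, 7.2, 5.2 and 11.6 CPM in RYGB, against 2, 1.3, 1, 0.8 and 2.2 CPM in sham (log2 fold change 1.64 ± 0.30, adjusted p = 0.0107). Psat1, of serine synthesis, had 3.5, 6.8, 12.8 and 12.5 CPM in RYGB, against 1.9, 1.3, 2.2, 1.4 and 3 CPM in sham (log2 fold change 1.63 ± 0.34, adjusted p = 0.017). RYGB 4 was lowest of its group for Ddit4 and highest for Atf5, and no RYGB value reached the sham range. Mthfd2, a mitochondrial folate enzyme, rose by 1.44 ± 0.30.

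Of 18 measured genes of growth hormone, IGF and insulin signalling 1 rose and 2 fell, with a median of 0.03, and of 9 EGF family genes none rose and 1 fell, with a median of 0.53, beside 6.32% and 6.29% over all genes. The first list's 2 falls became 1 without RYGB 1, RYGB 3 or sham 1, 2 or 4 and 3 without sham 5, 2 of its genes rose without RYGB 4, and 2 of the EGF family genes rose and 2 fell without RYGB 4. Ghr, the growth hormone receptor gene, had 6.5, 3.6, 3.9 and 12 CPM in RYGB, against 34.5, 36.2, 39.1, 37.6 and 23.9 CPM in sham (log2 fold change -2.35 ± 0.30, adjusted p = 0.00309). Nrg4, an EGF family ligand, had 1.3, 1.2, 1 and 3.6 CPM in RYGB, against 12.8, 13.6, 10, 9.8 and 7 CPM in sham (log2 fold change -2.12 ± 0.29, adjusted p = 0.00344). Akt1, a kinase of insulin signalling, had 79.7, 72.6, 128 and 100 CPM in RYGB, against 38.8, 48.6, 54.5, 32.6 and 46.7 CPM in sham (log2 fold change 1.07 ± 0.21, adjusted p = 0.0118). The groups were apart for these 3, lower after RYGB for Ghr and Nrg4 and higher for Akt1. Of 22 measured transcription factors of intestinal identity 3 rose and 4 fell, and the 4 falls became 2 without RYGB 2, RYGB 3 or sham 1, 3 or 4 and 1 without sham 2. Mecom, a zinc finger factor, had 127, 50.1, 94.8 and 3.6 CPM in RYGB, against 1, 2, 1.8, 1.6 and 2.3 CPM in sham (log2 fold change 3.93 ± 0.81, or 4.99 without RYGB 4, adjusted p = 0.0172). Maf, a factor of mature enterocytes, had 460, 308, 327 and 764 CPM in RYGB, against 1168, 1022, 1212, 1222 and 928 CPM in sham (log2 fold change -1.35 ± 0.25, adjusted p = 0.0113). Elf3, an epithelial ETS factor, had 292, 317, 852 and 266 CPM in RYGB, against 103, 124, 160.2, 136 and 134 CPM in sham (log2 fold change 1.54 ± 0.31, adjusted p = 0.015). RYGB 4 was above all sham libraries for Mecom, at 3.6 CPM, although the other RYGB libraries were at 50.1 CPM or more. Tead1, an effector of the Hippo pathway, rose by 2.58 ± 0.33. Gata4, which marks the proximal gut, had 153, 139, 145 and 155 CPM in RYGB, against 128, 135, 166, 129 and 124 CPM in sham, with a log2 fold change of 0.12 ± 0.13 (adjusted p = 0.573).

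Among glycosyltransferase genes, Mgat4c rose and St3gal1 fell. Mgat4c, of the family that branches N-glycans (chromosome 10 from 101681487 to 102391469, GRCm38), had 72.7, 169, 236 and 21.9 CPM in RYGB, against 1.3, 0.7, 3.2, 4.9 and 3.5 CPM in sham (log2 fold change 4.75 ± 0.64, or 5.41 without RYGB 4, adjusted p = 0.00374). St3gal1, a sialyltransferase, had 4.1, 2.5, 7.8 and 5.4 CPM in RYGB, against 19, 21.4, 18.2, 23.3 and 21 CPM in sham (log2 fold change -1.93 ± 0.25, adjusted p = 0.00313). Of 54 glycosyltransferases 7 rose and 3 fell, beside 6.32% and 6.29% over all genes, so the share that fell is near that background. Without RYGB 4, 11 rose and 4 fell. The 7 became 3 without RYGB 1, sham 3 or sham 5, 2 without RYGB 2, sham 1 or sham 4 and 1 without RYGB 3 or sham 2, and the 3 became 1 without RYGB 1, RYGB 3 or sham 1, 2, 3 or 4. Pnliprp2, a galactolipase related to pancreatic lipase, had 492, 184, 260.1 and 14.9 CPM in RYGB, against 5.4, 6.9, 7.3, 6.4 and 12 CPM in sham (log2 fold change 4.06 ± 0.81, or 3.46 without RYGB 1 and 5.11 without RYGB 4, adjusted p = 0.0151) and no overlap; the sums of pancreatic enzymes are given above. Retsat, a retinol saturase, had 90.8, 42.1, 87.3 and 185 CPM in RYGB, against 432, 553, 254, 294 and 304 CPM in sham (log2 fold change -1.98 ± 0.38, adjusted p = 0.0129); it was 1 of 5 retinoid genes of 14 that fell, a count of 1 without RYGB 1, RYGB 3 or sham 1, 2, 3 or 4 and 2 without sham 5. Pcdh19, a protocadherin, had 1.4, 2.2, 3.4 and 29.3 CPM in RYGB, against 61, 78.4, 69.5, 69.2 and 50.4 CPM in sham (log2 fold change -3.54 ± 0.62, or -4.35 without RYGB 4, adjusted p = 0.00959), with RYGB 4 between the groups.

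The duodenum of 8 of these animals, 3 RYGB and 5 sham, allowed the RYGB difference of the jejunum to be set against that of the duodenum within animals. Of 10663 genes measured in both segments 21 had a higher difference in the jejunum (0.197%) and 80 a lower one (0.75%), by limma with Benjamini-Hochberg adjustment. These calls rested on single animals: by jejunal library there were none without RYGB 2, sham 2 or sham 3 (2452, 1651 and 1665 at an unadjusted p below 0.05), 2 without sham 1, 21 without RYGB 4 or sham 5, and 300 without RYGB 3. None was left in limma without sham 1, 2 and 3, whose duodenum held pancreatic enzyme transcripts above 1% of the listed CPM, where 668 genes had an unadjusted p below 0.05. Cd36 had a jejunal difference lower than the duodenal one by 3.58 on the log2 scale (adjusted p = 0.0226), and over all duodenal libraries it had 503.6, 607.6, 484.6 and 1418.4 CPM in RYGB, against 586.4, 609.6, 506.1, 684 and 463.7 CPM in sham. The duodenal groups overlapped. For Slc9a3 the jejunal difference was higher by 2.585 (adjusted p = 0.0462), and its duodenal groups overlapped too.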

How the data were processed

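RNA of jejunal villi was sequenced in 9 libraries, grouped by the surgery label. The values are CPM, counts scaled to the library total, as deposited by the authors in 1 table of 11021 genes. Per the submitters' processing notes, HTSeq and the GRCm38 build were used; no source used here names the aligner, the annotation or the strand setting. Each listed gene had at least 1 CPM in at least 4 libraries. Read totals are unknown, so no counting interval is given, and 1 library stands for 1 animal, so p-values measure the spread between animals.

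From these values, log2(CPM + 1) was fitted with limma 3.58.1 in R 4.3.3 (trend and robust options) for RYGB minus sham, two-sided, with Benjamini-Hochberg adjustment over all genes and a threshold of 0.05. The pseudocount understates changes of low genes. CPM are not comparable between genes. The jejunum was set against the duodenum within 8 animals. The fits were tested on simulated data. Alternatives were a pseudocount of 0.1, median-of-ratios scaling, a minimum mean CPM of 5, library weights, no trend or robust option, each library left out, and a replicate block.

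Genes named were taken from the genes with the largest change, smallest adjusted p or highest level, the leading members of each list, genes differing between segments, and a fixed set of hormones, transporters and regulators; some of these genes are not reported here. The members and lists were chosen with earlier results of these data known. Reads of near-identical genes (Slc6a20, Cyp2c, Cyp3a, Cyp4a, Ugt1a, Ugt2b, Akr1c, Ces1, Defa, Naip and Reg3 families) and of overlapping genes may be divided uncertainly. Promoters came from RefSeq, searched over 300 bases, with 1 chromosome not used here. Locations came from the GENCODE annotation of GRCm38. Python 3.11.15, pandas 2.3.3 and matplotlib 3.10.9 were used.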

Additional observations from a re-analysis of the deposited data

Results flagged for a closer look

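Of 226 group checks over 113 genes 21 had a library far from the rest of its group by Dixon's test, which chance does in about 1 of 20 groups. RYGB 4 accounted for 7 of them. It was highest of the RYGB libraries for Cd36 (720 CPM), Ace (2853 CPM), Slc6a20b (6.9 CPM), Ugt2b5 (19.4 CPM), Aqp8 (0.5 CPM) and Nrg4 (3.6 CPM), and lowest for Nr1i3 (58.3 CPM). Among the other RYGB libraries, RYGB 1 was highest for Dbp (22.8 CPM), RYGB 2 lowest for Kcnq1 (7 CPM) and Trim30a (6 CPM), and RYGB 3 highest for Elf3 (851.9 CPM). In sham, sham 1 was highest for Hmgcs1 (141.4 CPM) and sham 2 for Acot4 (85.2 CPM). Sham 3 was highest for Cd36 (2395 CPM), Slc2a1 (31.8 CPM) and Gata4 (166 CPM), and lowest for Fabp1 (253.3 CPM) and Pfkp (123.7 CPM). Sham 5 was highest for Pyy (1.7 CPM) and lowest for Nr1d2 (118.7 CPM) and Ghr (23.9 CPM).

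For 15 genes the RYGB difference in the jejunum differed from that in the duodenum of the same animals by limma with Benjamini-Hochberg adjustment. Apart from genes listed through sham alone, the adjusted p lay between 0.0226 and 0.0462. On the log2 scale, jejunum minus duodenum, it was higher for Fdft1 (2.186), Pklr (1.744) and Slc9a3 (2.585). It was lower for Cd36 (-3.583), Slc6a20a (-3.317), Slc6a20b (-2.923), Cyp2c38 (-2.152), Cyp2j6 (-2.296), Cyp2j9 (-2.622), Ugt1a6a (-3.124), Ces1g (-2.659), Akr1c19 (-3.413), Aqp1 (-4.928), Maf (-1.601) and Pcdh19 (-3.815). Slc6a20b, Cyp2c38 and Ces1g are listed in the jejunum through sham alone, which favours a difference, so they are given as values with no p. With RYGB 2, sham 2 or sham 3 left out, none of the calls of this comparison was left (2452, 1651 and 1665 genes at an unadjusted p below 0.05).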

How the results depend on the processing

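The 1390 jejunal calls became between 484 and 2258 with 1 library left out. A block for the replicate number gave 455; the numbers name different animals, and same-numbered libraries did not deviate together (correlations 0.0817, 0.087, -0.247 and -0.112), so this pairing has no basis in the labels. Other settings kept the count within 1.5 times, with 651 higher and 829 lower after median-of-ratios scaling, against 697 and 693. The 101 segment calls became 8 with a pseudocount of 0.1, 208 with a minimum mean of 5 CPM, between 0 and 300 with 1 animal left out, and 0 without the 3 animals with pancreatic transcripts in the duodenum (668 at an unadjusted p below 0.05 by limma); median-of-ratios scaling moved the median segment difference of all genes to -0.02, against -0.15. The cause was not tested. None of the 113 named genes changed direction while called. Of the 105 called, 95 stayed called with every library left out in turn. The block took 11 below the threshold: Insig1, Tpi1, Uqcrc1, Ckmt1, Cubn, Retsat, Gcg, Ccl28, Duox2, Mthfd2 and Ctnnb1 (adjusted p between 0.05 and 0.104). Unknown depth limits what can be said of genes near 1 CPM.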
